A study of Homo sapiens with 4 samples.

Results

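The interferon regulatory factors (IRFs) are a family of transcription factors, and 6 of them, IRF1, IRF2, IRF3, IRF5, IRF7 and IRF8, are described here, taken from the deposited transcript tables by gene symbol out of 27685 genes in all. RNA was sequenced from HT-29 cells, an established human colon cancer line with epithelial character, that stably carried either a control vector or N-terminal Myc-tagged TRIM40 (Myc-TRIM40), a tripartite motif E3 ubiquitin ligase. Both constructs were delivered by a retroviral vector, and the paper's methods have transduced cells selected with puromycin. No further treatment of either cell population is described, and the labels give the control cells as WT. Each condition has 2 libraries, 1 from each of 2 experiments, and each deposited table holds the control and the Myc-TRIM40 library of 1 experiment. The sources used here do not say whether the stable cells were 1 clone or a pool.

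IRFs share an N-terminal domain that binds DNA at repeats of GAAA, and they differ in how they are switched on. IRF3 and IRF7 are phosphorylated by the kinases TBK1 and IKKε downstream of RNA and DNA sensors and drive the genes of type I interferon. IRF5 acts downstream of the Toll-like receptor adaptor MyD88. IRF1 is itself induced by interferon and activates antigen presentation and antiviral genes, while IRF2 binds the same sites and competes with it. IRF8 works mainly in myeloid and lymphoid cells, where it binds with partners such as PU.1 (SPI1) and BATF3. IRF7 is present at low levels in most resting cells and is induced by interferon through the complex ISGF3, of which IRF9 is a subunit.

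The promoter of IRF1 is a textbook target of interferon signalling, so its sequence is shown ahead of the values of IRF1. It comes from RefSeq, build GRCh38.p14, chr5:132490724-132491023 on the minus strand, and runs from 250 bases before the transcription start to 50 bases after it, with the match to a GAS element (interferon-gamma activated site, TTC and GAA separated by 3 bases) in capitals.
IRF1 promoter: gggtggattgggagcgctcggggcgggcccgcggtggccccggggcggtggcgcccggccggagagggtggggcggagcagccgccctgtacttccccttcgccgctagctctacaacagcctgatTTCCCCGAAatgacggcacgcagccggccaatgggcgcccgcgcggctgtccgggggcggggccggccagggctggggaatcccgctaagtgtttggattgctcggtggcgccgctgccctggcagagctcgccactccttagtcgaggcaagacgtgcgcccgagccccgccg
The match TTCCCCGAA lies between -124 and -116 relative to the start. Of 35116 RefSeq promoters of this length, 7.66% held such a match on either strand. An interferon-stimulated response element, searched as a pair of GAAA blocks separated by 2 bases, occurred in 3.57% of promoters. It had no match in the 7 promoters available for IRF1, IRF5 and IRF8. No promoter of IRF2, IRF3 or IRF7 was available, so these were not searched. A shorter IRF core, AA and GAAA separated by 2 bases, is contained in that element and occurred in 22.8% of promoters. This core had 1 match in 1 of 4 IRF5 promoters, 2 matches in one IRF8 promoter and 1 match in the other, and none in that of IRF1. The IRF8 windows overlap, and the match of the second is the same site as one of the first. These matches describe letters in a window and no binding was measured.

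Between 60954602 and 67424698 reads were assigned per library. TRIM40 was listed at 0 reads in both control libraries and at 272646 (experiment 1) and 110665 reads (experiment 2) with Myc-TRIM40, as the labels state. All 8 colon epithelium markers had reads in every library, with summed levels between 13911 and 16408 TPM (each transcript's share after correction for length, scaled to the same total in every library), and CDX1, at under 1 TPM, was the lowest of them. The 8 leukocyte markers summed to between 15.9 and 34.7 TPM, most of it CD68. CD14 had between 148 and 297 reads per library and ITGAM between 106 and 390. CD3E, MS4A1 and CSF1R were at 0 in all 4 libraries and PTPRC had between 0 and 4 reads. Of 5 fibroblast markers, COL1A1 had between 123 and 352 reads per library and PDGFRB between 5 and 13. COL1A2, COL3A1 and DCN were at 0 in all 4 libraries, and the 5 summed to between 0.566 and 2.19 TPM.

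IRF3 was the most abundant member in 3 of the 4 libraries, and IRF7 was the most abundant in experiment 1 with Myc-TRIM40. In the control libraries of experiments 1 and 2, the levels were 174.9 and 181.8 TPM for IRF3, 36.1 and 29.9 TPM for IRF7, 20.2 and 13.1 TPM for IRF1, 13.3 and 9.29 TPM for IRF2, and 10.1 and 10.6 TPM for IRF5. IRF1 lay above IRF2 in each of the 4 libraries, although their ranges over the control libraries met. IRF2 and IRF5 changed places between the control libraries, so their order is not set. IRF8 was at 0.0263 and 0.0391 TPM, from 2 and 4 reads. Summed over the 6 genes, the level was 254.5 and 244.7 TPM in the control libraries and 419.7 and 265.2 TPM in the Myc-TRIM40 libraries, and IRF7 alone was at 36.1 and 180.4 TPM in control and Myc-TRIM40 cells of experiment 1.

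**Figure D1:**
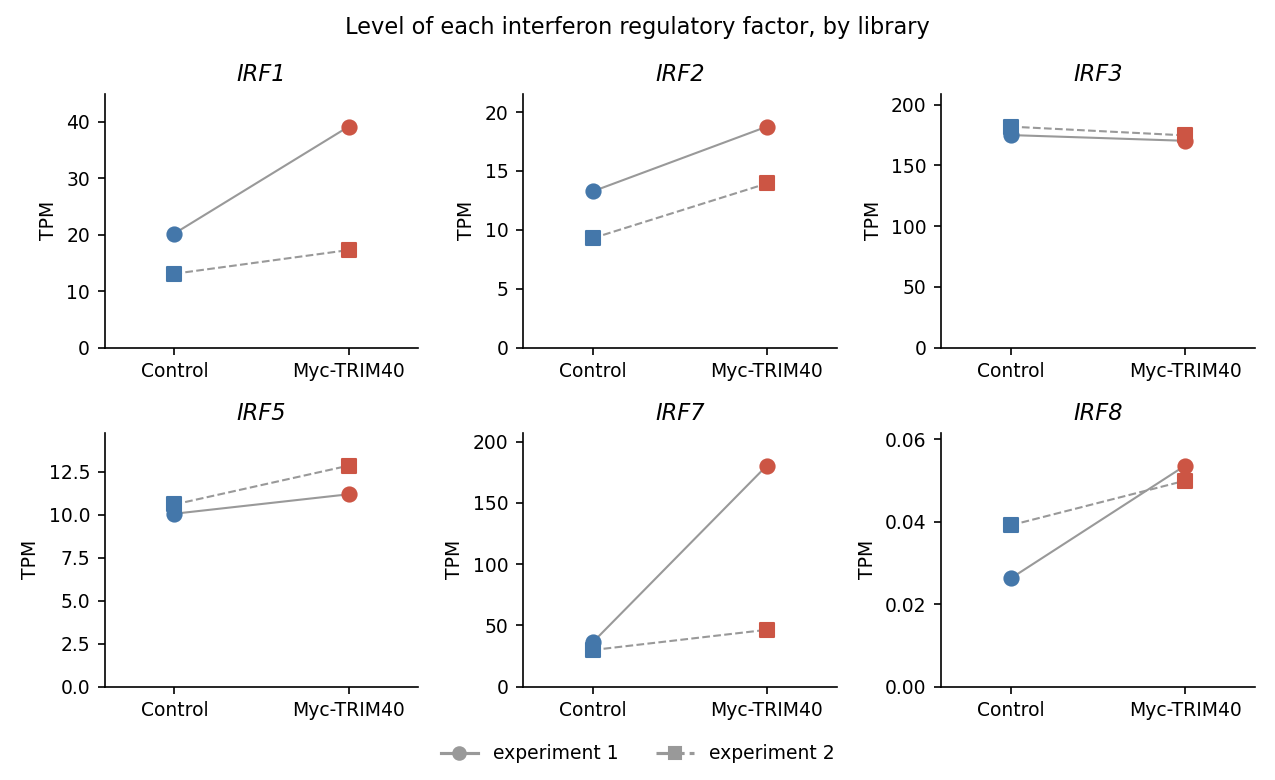
Level of each of the 6 IRF genes in TPM, per library, with control libraries in blue and Myc-TRIM40 libraries in red, and lines joining the pair of libraries of experiment 1 (circles, solid) and experiment 2 (squares, dashed). Each y axis starts at 0 and has its own range. IRF7 is at 36.1 and 180.4 TPM in experiment 1 and at 29.9 and 46.4 TPM in experiment 2, whereas IRF3 lies between 170.2 and 181.8 TPM in all libraries.

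Whether TRIM40 expression went with a change of these regulators was asked within each experiment and over both. IRF7 was 4.67-fold higher with Myc-TRIM40 in experiment 1 and 1.30-fold higher in experiment 2, and IRF1 was 1.81-fold and 1.11-fold higher, as ratios of FPKM + 1, where FPKM is fragments scaled by transcript length and by the reads of the library. IRF2 was 1.33-fold and 1.23-fold higher, IRF5 1.07-fold and 1.03-fold, and IRF3 was at 0.953 and 0.818 of its control. Of the 5 members with enough reads to be tested, 2 (IRF1 and IRF7) passed 1.5-fold upward in experiment 1, where 2.78% of the 14868 genes tested did so, and 0 in experiment 2, where 8.54% did. None passed in both experiments, against 0.457% of all genes, and no member passed 1.5-fold downward in either, as 0.659% of all genes did in experiment 1 and 2.88% in experiment 2. Each experiment has 1 library per condition, so a fold within an experiment has no replicate check and its difference between the experiments was not tested.

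Over both experiments, no member passed an adjusted p of 0.05 in edgeR's quasi-likelihood test with the experiment as a block, a threshold that 0.0605% of all genes passed. By DESeq2 the count was also 0, against 0.363% of all genes, and by limma 0, against 3 of 14868 genes. At an unadjusted p under 0.05 in edgeR, 1 member, IRF7, was higher and none was lower, against 3.41% of all genes higher and 168 of 14868 lower. The median log2 fold change of the 5 tested members was 0.33, beside 0.04 over all genes tested. On the log2 scale of FPKM + 1 the members' median was 0.41 in experiment 1 and 0.15 in experiment 2, beside 0.03 and 0.08 over all genes.

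The FPKM of a library summed to 457454, 447570, 552270 and 469117 in control and Myc-TRIM40 of experiment 1 and control and Myc-TRIM40 of experiment 2, so that TPM, which has the same sum in every library, gave higher ratios in experiment 2 than FPKM did. The median log2 ratio of TPM + 1 over all genes tested was 0.06 in experiment 1 and 0.27 in experiment 2. By TPM + 1, IRF7 was at least 1.5-fold higher in both experiments (4.89-fold and 1.53-fold), as were 1.1% of all genes. Relative to the median gene on that scale IRF7 was 4.70-fold and 1.27-fold higher. By TPM, both Myc-TRIM40 libraries lay above both control libraries for IRF2, IRF5 and IRF7, as for 21.7% of all genes, and below them for IRF3, as for 3.43%. By CPM with TMM normalization, which scales a library by its reads and by the trimmed mean of its ratios to the others, only IRF2 and IRF7 of the 5 lay above, as did 11% of all genes, and no member lay below, as did 9.67%.

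**Figure D2:**
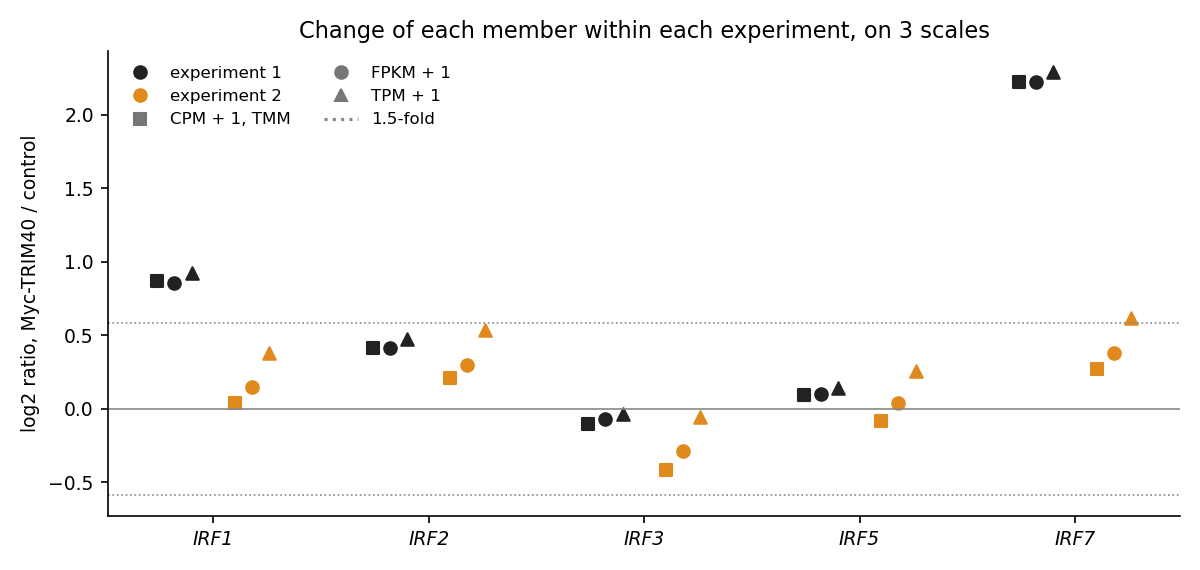
Change of the 5 tested IRF genes, as the log2 ratio of Myc-TRIM40 over control (y axis), within experiment 1 (black) and experiment 2 (orange), on the scales of CPM + 1 with TMM (squares), FPKM + 1 (circles) and TPM + 1 (triangles). Each point compares 1 library with 1 library and so has no error bar, and dotted lines mark 1.5-fold. IRF7 and IRF1 pass the line on all 3 scales in experiment 1, and in experiment 2 IRF7 passes it by TPM alone, while IRF5 lies below 0 by CPM and above 0 by FPKM and TPM in experiment 2.

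IRF7 (Gene ID 3665, hg19 chromosome 11, 612555 to 615999) is the amplifier of the type I interferon response. It had 2033 reads in control and 9957 reads in Myc-TRIM40 cells of experiment 1, and then 2262 and 2759 reads in experiment 2. In FPKM these were 16.5 and 80.8, then 16.5 and 21.8. The Myc-TRIM40 library of experiment 1 thus stood far above the other 3, which lay close together. The conditions did not overlap, and both Myc-TRIM40 libraries were the higher ones for 21.7% of all genes by TPM and 11% by CPM with TMM. The log2 fold change over both experiments was 1.26 (SE 0.42) with an adjusted p of 0.888 by edgeR, and 1.24 with an adjusted p of 0.156 by DESeq2. With the Myc-TRIM40 library of experiment 2 left out, in a fit with no block where the lone Myc-TRIM40 library is assumed to vary as the controls do, it was 2.20 with an adjusted p of 0.0408, a threshold that 0.757% of 15314 genes passed in that fit. Over the 11 fits tried the adjusted p of IRF7 lay between 0.0408 and 1.00, and no other fit called it. IRF7 is among the interferon-stimulated genes that the study picked from these same libraries, so its change is not independent evidence of that choice.

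IRF1 (Gene ID 3659, hg19 chromosome 5, 131817301 to 131826465) had 2055 reads in control and 3902 reads in Myc-TRIM40 cells of experiment 1, then 1783 and 1849 reads in the repeat experiment. In FPKM these were 9.24 and 17.5, then 7.23 and 8.10. One library, that of Myc-TRIM40 in experiment 1, was high, and the conditions overlapped, since the Myc-TRIM40 library of experiment 2 lay below the control of experiment 1. The log2 fold change was 0.46 (SE 0.26, edgeR adjusted p = 0.888). By CPM with TMM the log2 ratio within experiment 2 was 0.04, beside 0.87 in experiment 1.

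IRF2 (Gene ID 3660, hg19 chromosome 4, 185308876 to 185395726), the competitor of IRF1, had a similar ratio in both experiments by FPKM + 1. It had 868 reads in control and 1204 in Myc-TRIM40 cells of experiment 1, then 814 and 960 reads. The FPKM were 6.07 and 8.40, then 5.13 and 6.54. Both Myc-TRIM40 libraries lay above both controls, as for 21.7% of all genes by TPM and 11% by CPM with TMM. The log2 fold change of 0.33 (SE 0.22) did not pass the test (edgeR adjusted p = 0.888). By CPM with TMM the log2 ratio of IRF2 was 0.41 in experiment 1 and 0.21 in experiment 2.

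IRF3 (Gene ID 3661, hg19 chromosome 19, 50162826 to 50169132), the constitutive sensor-activated factor, had 7870 reads in control and 7517 in Myc-TRIM40 cells of experiment 1, then 11029 and 8308 reads. The FPKM were 80.0 and 76.2, then 100.4 and 81.9. The control of experiment 2 was the high library, and the conditions overlapped in reads and FPKM. The log2 fold change was -0.26 (SE 0.22, edgeR adjusted p = 0.888). The log2 ratio in experiment 2 was -0.42 by CPM and -0.06 by TPM. IRF3 shares 734 bases with BCL2L12, its neighbour with 2130 to 3704 reads per library, and the use of strand in the counting is not given in the sources used here, so reads in that stretch are uncertain.

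IRF5 (Gene ID 3663, hg19 chromosome 7, 128577086 to 128590096), the Toll-like receptor factor, had 820 reads in control and 903 in Myc-TRIM40 cells of experiment 1, then 1173 and 1114 reads. The FPKM were 4.60 and 5.01, then 5.86 and 6.03. The experiments differed more than the conditions did in both units. Its log2 fold change was 0.01 (SE 0.22, edgeR adjusted p = 0.998), and its sign turned with the scale, since the log2 ratio in experiment 2 was 0.04 by FPKM + 1, 0.26 by TPM + 1 and -0.08 by CPM + 1.

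IRF8 (Gene ID 3394, hg19 chromosome 16, 85932774 to 85956211), the myeloid and lymphoid factor, had 2 reads in control and 5 in Myc-TRIM40 cells of experiment 1, then 4 and 5 reads. It was kept out of the test by the filter on low counts, and no fold is given at this depth.

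The deposited reads are divided among 21 RefSeq transcripts of the 6 genes, as estimates by the submitters' pipeline rather than counts of reads unique to a transcript. Of the 15 transcripts of IRF3, IRF5 and IRF7 with at least 10 reads in some library, the share of the gene's reads did not overlap between conditions for 6, of which 5 belong to IRF3 and 1 to IRF7. Over all 29639 such transcripts of genes with several, 28.6% did not overlap. Both counts compare the shares alone and take no account of counting error. The intervals given below are 95% exact binomial intervals and cover counting error only, not the error of dividing reads between transcripts.

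For IRF7, the share of variant a was lower with Myc-TRIM40 in both experiments. It was 74.9% (72.9 to 76.7) in control and 69.7% (68.8 to 70.6) in Myc-TRIM40 cells of experiment 1, then 73.9% (72.0 to 75.7) and 69.3% (67.6 to 71.1) in experiment 2. Variant b held 14.0% and 17.3% of reads in experiment 1 and 11.8% and 13.6% in experiment 2, and variant d held 11.1% and 13.0%, then 14.3% and 17.1%. Both minor variants were higher in share within each experiment, but their conditions overlapped across experiments. All 3 variants had more reads with Myc-TRIM40 in both experiments, with variant a at 1522 and 6942 reads in experiment 1 and at 1671 and 1913 in experiment 2.

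For IRF3, variant 1 held about the same share in 3 libraries, at 54.6%, 53.9% and 55.2% in both libraries of experiment 1 and the control of experiment 2, and 49.7% in the Myc-TRIM40 library of experiment 2. Variant 1 is among the 5 IRF3 transcripts counted above as not overlapping. In experiment 1 its intervals did overlap, at 53.5 to 55.7 in control and 52.8 to 55.1 in Myc-TRIM40 cells. The intervals also overlapped between conditions for variants 3, 7 and 8. Of the 5, only variant 9 kept the intervals of the control and Myc-TRIM40 libraries apart. Variant 9 was higher with Myc-TRIM40 in both experiments, at 10.5% (9.84 to 11.2) and 13.8% (13.0 to 14.6) in experiment 1 and 12.0% (11.4 to 12.6) and 14.4% (13.6 to 15.1) in experiment 2. Variant 5 differed in opposite directions, at 6.99% in control and 3.49% in Myc-TRIM40 cells of experiment 1 and at 2.98% and 7.62% in experiment 2. These differences are larger than the binomial intervals, which run from 6.43 to 7.57 and from 3.08 to 3.93 in experiment 1 and from 2.67 to 3.32 and from 7.06 to 8.21 in experiment 2.

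The division of IRF5 reads varied most. Variant 5 held 34.9% and 63.8% of reads in control and Myc-TRIM40 of experiment 1, and 92.7% and 58.2% in experiment 2. Variant 6 had 309, 253 and 465 reads in both libraries of experiment 1 and the Myc-TRIM40 library of experiment 2, but 0 of 1173 reads in the control of experiment 2. By counting error alone, this allows a share of up to 0.256% by the limit of 3 reads and up to 0.314% by the exact interval. Neither limit covers how the pipeline divided reads between transcripts, so the true share of variant 6 there may be higher. Variant 2 held 27.2% and 8.19% in experiment 1 and 7.16% and 0.0898% in experiment 2. The total of IRF5 differed far less than its transcripts did, and no IRF5 transcript kept its conditions apart over both experiments. IRF1, IRF2 and IRF8 are each listed with 1 transcript.

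**Figure D3:**
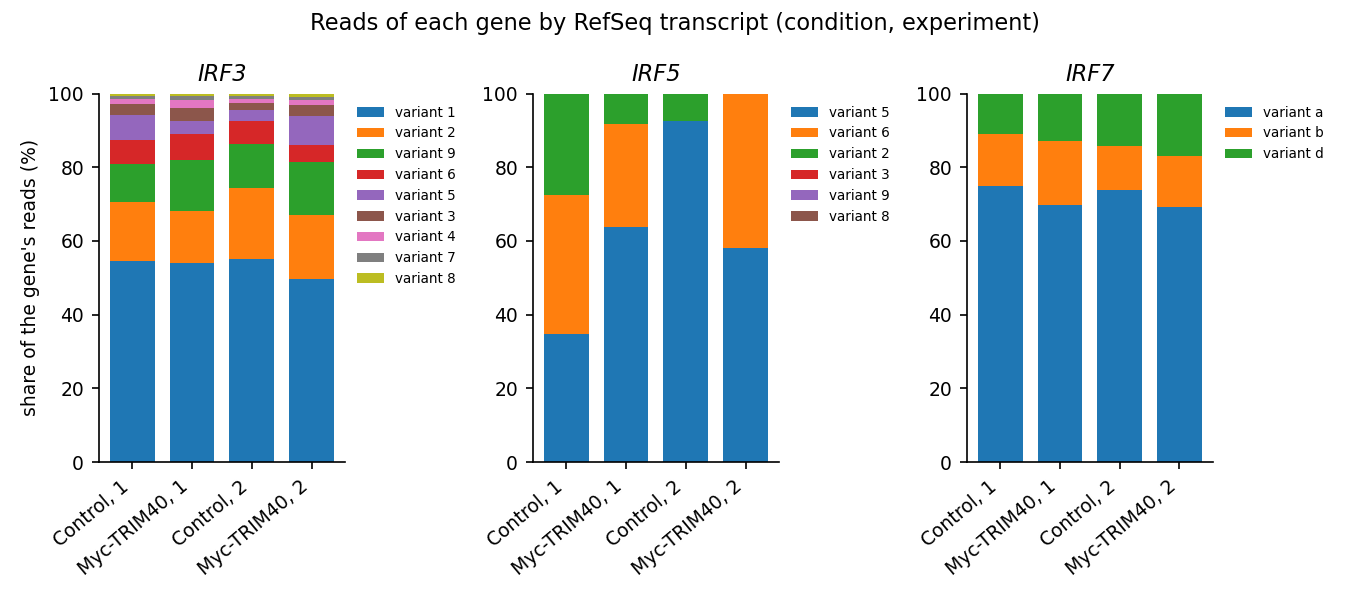
Share of each gene's reads (y axis, percent) on each listed RefSeq transcript variant of IRF3, IRF5 and IRF7 in the 4 libraries, labelled by condition and experiment, with no error bars. The bars of IRF7 show variant a at 73.9% to 74.9% in the control and 69.3% to 69.7% in the Myc-TRIM40 libraries, whereas in IRF5 variant 6 is at 0 in the control of experiment 2 and between 28.0% and 41.7% in the others.

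Of the other family genes, IRF9, the DNA-binding subunit of ISGF3, had 963 and 4360 reads in experiment 1 and 953 and 1714 in experiment 2, and was 4.17-fold and 1.84-fold higher by FPKM + 1. Its log2 fold change of 1.49 (SE 0.32) had an adjusted p of 0.395 by edgeR and of 0.00303 by DESeq2. IRF4, a lymphoid factor, had 0 and 3 reads in each experiment.

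**Figure D4:**
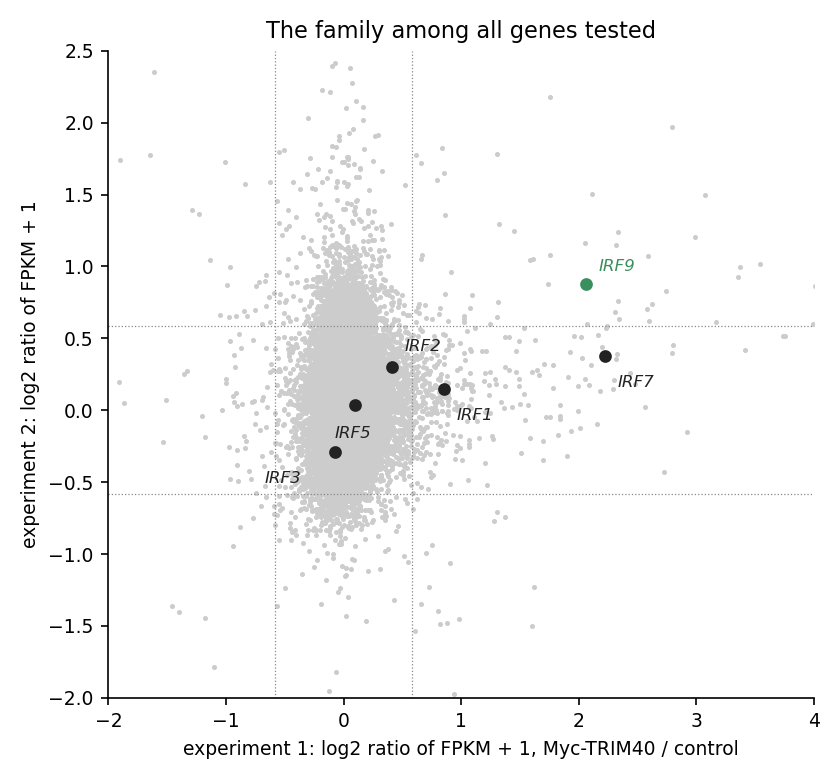
Log2 ratio of FPKM + 1, Myc-TRIM40 over control, in experiment 1 (x axis) and experiment 2 (y axis), for all 14868 genes tested (grey), the 5 tested IRF genes (black) and IRF9 (green), with dotted lines at 1.5-fold and genes beyond the axes not drawn. IRF7, at 2.22 and 0.38, and IRF1, at 0.85 and 0.15, lie past the line in experiment 1 only, and IRF9, at 2.06 and 0.88, past it in both.

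Of 21 genes of the sensors, adaptors, kinases and signal transducers that activate IRFs, all 21 were tested, and 6 were at least 1.5-fold higher in experiment 1, 5 in experiment 2 and 3 in both, IFIH1 and DDX58 among them, beside 2.78%, 8.54% and 0.457% of all genes. No gene of the list was 1.5-fold lower. At an unadjusted p under 0.05 in edgeR 5 were higher and none lower, beside 3.41% of all genes higher and 168 of 14868 lower. By the adjusted p, 0 passed in edgeR, beside 0.0605% of all genes. DESeq2 called 3 higher, beside 0.363% of all genes called, and limma called 0, beside 3 of 14868 genes. The median log2 fold change was 0.25, beside 0.04 over all genes. The RNA sensor IFIH1 (MDA5) was at 7.91 and 59.7 TPM in experiment 1 and at 5.91 and 12.7 TPM in experiment 2, for control and Myc-TRIM40. The RNA sensor DDX58 (RIG-I) was at 6.20 and 49.6 TPM, then 4.16 and 8.66 TPM. In both genes the Myc-TRIM40 library of experiment 1 was the high one, and both Myc-TRIM40 libraries lay above both controls, as for 21.7% of all genes by TPM. IRAK1, the kinase downstream of MyD88 with the highest level of the list, differed more between the control libraries than between conditions, at 420.8 and 372.2 TPM, then 218.8 and 325.3 TPM. MYD88 itself was at 41.0 and 63.4 TPM, then 25.8 and 38.1 TPM.

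Of 12 genes that bind or regulate IRF proteins, 10 were tested, and 2 were at least 1.5-fold higher in experiment 1, 2 in experiment 2 and 0 in both, beside the same 2.78%, 8.54% and 0.457%. None passed 1.5-fold downward, and 1 was higher at an unadjusted p under 0.05 in edgeR, beside 3.41% of all genes. By the adjusted p edgeR and DESeq2 called 0, beside 0.0605% and 0.363% of all genes, and limma called 0, beside 3 of 14868 genes. The median log2 fold change of the list was 0.00, beside 0.04 over all genes. The corepressor TRIM28 was at 570.5 and 526.1 TPM in experiment 1 and 403.5 and 424.2 TPM in experiment 2. COPS5, a subunit of the COP9 signalosome, was at 98.7 and 104.1 TPM, then 139.0 and 117.6 TPM. IRF2BP2, a corepressor that binds IRF2, was at 77.5 and 79.1 TPM, then 78.1 and 86.2 TPM. In experiment 2, FPKM gave the other direction for TRIM28 (222.8 and 199.0) and IRF2BP2 (43.1 and 40.5), while COPS5 was lower on both scales.

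Of 26 genes known as targets of IRFs, 19 were tested, and 15 were at least 1.5-fold higher in experiment 1, beside 2.78% of all genes, while 2 were in experiment 2, a share close to the 8.54% of all genes. The 2 genes, IFIT1 and IFIT3, were higher in both experiments, beside 0.457% of all genes, and no target was 1.5-fold lower. At an unadjusted p under 0.05 in edgeR 9 were higher and none lower, beside 3.41% of all genes higher and 168 of 14868 lower. By the adjusted p, 0 passed in edgeR, beside 0.0605% of all genes. DESeq2 called 3 higher, beside 0.363% of all genes called, and limma called 0, beside 3 of 14868 genes. The median log2 ratio of FPKM + 1 was 1.75 in experiment 1 and 0.18 in experiment 2, beside 0.03 and 0.08 over all genes. ISG15, a ubiquitin-like modifier, was at 168.9 and 1320 TPM in experiment 1 and 222.1 and 235.2 TPM in experiment 2. B2M, the light chain of MHC class I, was at 830.6 and 2041 TPM, then 1280 and 1331 TPM. Like IRF1, both genes had 1 high library, that of Myc-TRIM40 in experiment 1. IFIT1, which binds foreign RNA, was at 4.44 and 76.7 TPM, then 3.62 and 10.8 TPM. IFIT3, its partner, was at 11.9 and 86.3 TPM, then 6.44 and 14.1 TPM. CASP4, an inflammatory caspase, was at 106.8 and 125.5 TPM, then 80.0 and 107.0 TPM. In experiment 2, FPKM gave the other direction for ISG15 (122.7 and 110.3) and B2M (706.9 and 624.2). IFIT1, IFIT3 and CASP4 were higher with Myc-TRIM40 on both scales. Several genes of the lists of activators and targets are interferon-stimulated genes of the kind the study selected in these libraries, so the counts are not independent evidence of their direction. In these bulk libraries, a change in the share of cells that respond and a change in RNA per cell cannot be told apart.

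The genes whose pattern over the 4 libraries was most like that of IRF1 and IRF7 were found among 10654 genes with a mean of at least 5 CPM, by the root mean square distance of centred log2 CPM. Only these 2 members varied by at least 1 on the log2 scale, with spans of 1.14 and 2.24. For IRF1 the nearest genes were APOL2 at a distance of 0.0057 and MGAT3 at 0.052. APOL2 was at 19.8 and 36.5 CPM in experiment 1 and at 16.3 and 16.9 CPM in experiment 2. For IRF7 they were PARP12 at 0.0987, with 38.3 and 152.5 CPM, then 38.6 and 48.0 CPM, and HLA-B at 0.106, with 20.6 and 116.0 CPM, then 26.8 and 29.7 CPM. HLA-B reads can be shared with other HLA class I genes, so its value is uncertain. A likeness over 4 libraries that differ mainly in 1 of them is a description and was not tested.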

How the data were processed

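RNA-seq libraries of HT-29 cells (2 conditions, 2 experiments, 4 libraries) were made by the authors with the TruSeq Stranded mRNA kit. The authors deposited, per RefSeq transcript, estimated read counts as whole numbers. The deposited FPKM are scaled by transcript length and reads. The TPM were deposited by the authors for experiment 2, and for experiment 1 were computed here from FPKM. The submitters' processing notes name HISAT2 2.1.0, StringTie 1.3.4d and hg19; the annotation release and strand setting are not given in the sources used here. Columns of the authors' own comparisons, which hold fold changes, were not used.

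Here, 63714 transcripts were summed to genes. All 14868 genes kept by filterByExpr were fitted with edgeR 4.0.16 (R 4.3.3, TMM, glmQLFTest, Benjamini-Hochberg adjustment) with the experiment as a block. Libraries were paired by the labels' replicate numbers, since each deposited table holds 1 experiment (correlation of same-numbered deviations, 0.588). Residual degrees of freedom were 1 and the common dispersion 0.0484. An exact permutation test of 2 against 2 cannot go below 0.333, so none was used for single genes. The paper describes 2 independent RNA-seq experiments, without stating how far their cultures were independent. With the experiment as a block, p-values set a change against its disagreement between the 2 experiments, with variance information shared over all genes. DESeq2 1.42.0 and limma 3.58.1 (on log2(FPKM + 1)) were alternatives. The fitting was tested on simulated data in which each changed gene had the same fold in both experiments. That test therefore did not cover folds that differ between the experiments, as that of IRF7 did. Ratios within an experiment used a pseudocount of 1, which understates changes of low genes. Genes of the lists were named by rule: the 3 with the highest mean TPM, any with an adjusted p under 0.05, and up to 3 that changed at least 1.5-fold one way in both experiments; the 2 genes most like a member; and genes overlapping a member. Other genes named are markers. The members and lists were chosen with earlier results of these data known. Some genes that this rule or the lists would name are not reported here.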

Additional observations from a re-analysis of the deposited data

How the results depend on the processing

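The count of 0 IRF genes called by edgeR was also 0 with no replicate block, with upper-quartile normalization, no filter, DESeq2, limma, or IRF3 and BCL2L12 summed. Leaving out 1 library in turn, in fits with no block, gave 0 to 1, and the 1 was IRF7 without the Myc-TRIM40 library of experiment 2. Over all genes, edgeR called 6 higher and 3 lower with the block, 0 and 0 without it, 5 and 2 with upper-quartile normalization and 0 and 0 with no filter, DESeq2 45 and 9, and limma 3 and 0. At an unadjusted p under 0.05 the fit with no block had 128 higher and 25 lower. The count of 0 members at least 1.5-fold higher in both experiments became 1 by TPM (IRF7), and with 1 experiment alone it ranged from 0 to 2, the 2 being IRF1 and IRF7 in experiment 1. It stayed 0 with a pseudocount of 0.1, a threshold of 2, CPM, centring on the median gene and a minimum mean FPKM of 1. The log2 fold change of IRF5 turned to -0.0051 with no replicate block, -0.0050 with upper-quartile normalization and -0.020 with DESeq2, and was -0.083 to 0.094 with 1 experiment left out. With 1 experiment left out the log2 ratio was 0.04 to 0.87 for IRF1 and 0.27 to 2.22 for IRF7, and by TPM, an alternative for fold changes chosen after seeing the data, that of IRF1 was 0.65. The other 36 of 40 alternative fold changes of members kept their sign. All 12 alternative transcript shares lay within the counting interval, but they only left out transcripts under 10 reads. IRF3 and IRF7 had no such transcript and those of IRF5 held few reads, so this could not test the division of reads between transcripts. The scale set the split of genes past 1.5-fold in experiment 2, with 74.8% of them higher by FPKM, 60.9% by CPM and 95.5% by TPM. For all of these the cause was not tested. IRF8 and IRF4 were too shallow for any fold, and 2 experiments limit the precision of the rest.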
